A study of Mus musculus with 6 samples.

Results

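Alternative activation is the state that macrophages enter under interleukin-4 and interleukin-13, and 10 genes that carry or mark it were taken by symbol from the deposited expression table: Il4ra, Stat6, Klf4, Pparg, Egr2, Mrc1, Arg1, Chil3, Retnla and Cish. The table lists 13254 genes and 9 of the 10 were read from it, while Retnla was not analysed here. The samples were bone marrow derived macrophages (BMDMs, macrophages grown in culture from marrow precursors) of wild-type mice (WT) and of mice in which the miR-130b/301b microRNA cluster was deleted (KO), with 3 samples in each of 2 groups. Strain, age, sex and the way the cluster was deleted are not stated in the sources used here, and the labels name no added cytokine and no other treatment. Values are CPM (counts scaled to library size, and here also between libraries, by the authors), and depth in reads is unknown. Where 3 values are given for a group, they are those of replicates 1, 2 and 3 in that order. The labels do not say that samples of a group came from separate mice, so a p-value here reflects sample-to-sample spread that could be technical.

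In alternative activation, interleukin-4 binds a receptor whose alpha chain is encoded by Il4ra, receptor-bound Janus kinases phosphorylate STAT6, and STAT6 enters the nucleus and switches on effector genes together with partners such as KLF4, PPARG and EGR2. The effectors include the mannose receptor (Mrc1), arginase 1 (Arg1) and the secreted proteins of Chil3 and Retnla. Cish encodes a feedback inhibitor of cytokine signalling. MicroRNAs lower the levels of messenger RNAs by pairing their seed, bases 2 to 8, with sites that lie mostly in 3′ untranslated regions (3′ UTRs).

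The cluster that the KO mice lack encodes mmu-miR-130b-3p and mmu-miR-301b-3p. The first is shown in its RefSeq sequence (GRCm38.p6, chromosome 16, 17124071 to 17124092, minus strand) beside a pair of microRNAs from other loci, with the seed in capitals, because it defines the letters searched for in the members. In the RefSeq table, 7 mature mouse microRNAs shared this seed, of which 6 come from loci outside the cluster, among them mmu-miR-130a-3p (chromosome 2) and mmu-miR-301a-3p (chromosome 11). The sequence of mmu-miR-301b-3p was not available here, so its seed was not compared and it is not in this count.
mmu-miR-130b-3p: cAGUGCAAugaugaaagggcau
mmu-miR-130a-3p: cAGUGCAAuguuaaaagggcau
mmu-miR-301a-3p: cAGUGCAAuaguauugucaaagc

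Of the 9 listed genes, Pparg alone held the full seed match, the letters TTGCACT on the transcript strand, in its longest annotated 3′ UTR (GENCODE M21, on GRCm38; the submitters' processing notes name another build, GRCm39). Its single match lies on chromosome 6 at 115490237 to 115490243, plus strand, beginning at base 42 of a 3′ UTR of 204 bases, and is followed by an A. It is printed with its flanks, the match in capitals.
Pparg 3′ UTR: ccttctattgaTTGCACTattattttgag
The 3′ UTRs of Mrc1, Arg1, Chil3, Il4ra, Stat6, Klf4, Egr2 and Cish, from 299 bases (Chil3) to 2420 bases (Il4ra), did not hold these letters. Among 10691 tested genes with an annotated 3′ UTR, 1278 (11.95%) held the match, and 2.53% held it followed by an A. Without their first T, the letters were held by 34.6% of these tested genes. Among the members outside Pparg, Klf4 held this shorter match (1 match) and so did Egr2 (2 matches). A match is a description of the letters and not a measured site.

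The libraries expressed macrophage genes in both groups. All 9 macrophage markers (among them Csf1r, Adgre1, Cd68 and Lyz2) were tested, and their summed level was 19876 to 20645 CPM in KO and 18219 to 18856 in WT. Across all genes, 147 of 11556 tested genes (1.27%) passed the test between KO and WT: limma on log2(CPM + 1) with a Benjamini-Hochberg (BH) adjusted p under 0.05. Of these 56 (0.485%) were higher in KO and 91 (0.787%) lower, and leaving out WT replicate 1, 2 or 3 gave 243, 58 or 55 such genes, and leaving out KO replicate 1 gave 63. Stromal markers were lower in KO: of 6 tested, Col3a1 and Postn fell, and the summed level of the 8 listed of 9 was 16.2, 5.89 and 39.3 CPM in KO, against 63.8, 56.8 and 60.8 CPM in WT. Of 7 tested neutrophil and early myeloid markers Mpo and Mmp8 fell, and the sum was 127 to 159 CPM in KO and 142 to 158 CPM in WT. None of the 3 tested eosinophil, basophil and mast cell markers passed the test (52.1 to 75.0 CPM in KO, 52.3 to 58.8 in WT), nor did the 1 tested dendritic cell marker. The remaining dendritic cell and lymphoid markers that were listed lay under the filter on low values, and adipocyte markers were not analysed here. In bulk samples such as these, fewer cells of a type and less RNA per cell cannot be told apart.

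None of the alternative activation genes passed the test between KO and WT. Of the 10, 8 reached the filter on low values (at least 1 CPM in at least 3 samples) and were tested, and 0 passed, beside 1.27% of all tested genes. An unadjusted limma p under 0.05 was found for 2 of the 8, Klf4 and Arg1, beside 12.5% of all tested genes. The directions were split: 4 of the 8 fold changes were above 0 and 4 below, with a median of -0.03 on the log2(CPM + 1) scale and of -0.00035 over all tested genes. The median of the 8 was -0.0059 with columns rescaled to equal sums (0.022 over all genes) and ran from -0.042 to 0.0035 when 1 sample was left out.

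**Figure D1:**
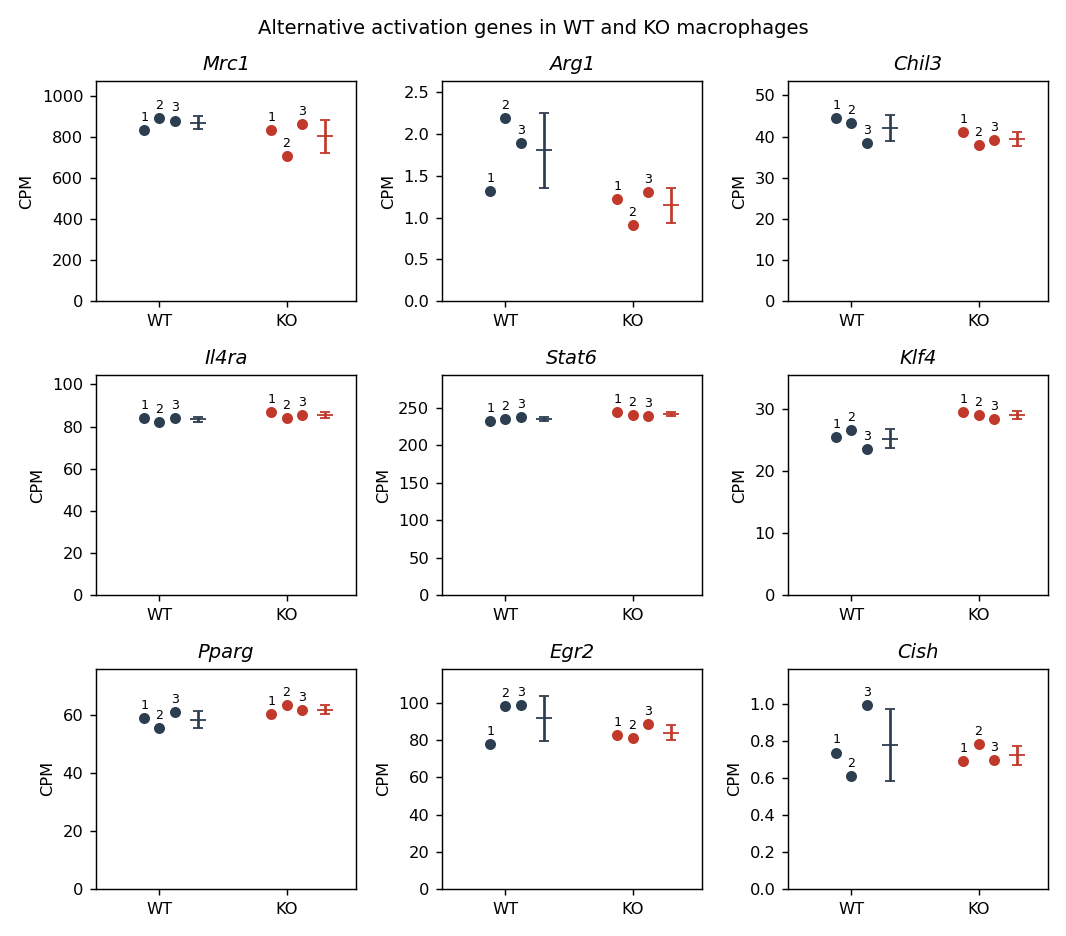
Level of each of the 9 listed genes in CPM (vertical axes, from 0) in the 3 WT and 3 KO samples, with the replicate number over each point and the mean ± SD beside the points. KO replicate 2 is the lowest sample for Mrc1 (709 CPM) and Arg1 (0.906 CPM), and WT replicate 1 is the lowest WT sample for Arg1 and Egr2.

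The genes of the receptor alpha chain and of the transcription factor that carry the interleukin-4 signal were at nearly the same level in both genotypes. Il4ra, on chromosome 7 (125552120 to 125579474, plus strand, GRCm38), measured 87.1, 84.0 and 85.4 CPM in KO, against 84.2, 82.1 and 84.1 CPM in WT. The groups overlapped. The mean was 85.5 ± 1.6 CPM in KO and 83.5 ± 1.16 CPM in WT (SD, n = 3 here and below), a log2 difference of 0.03 (SE 0.0351, limma, BH-adjusted p = 0.756) with a 95% interval from -0.05 to 0.11, so a KO level from 0.968 to 1.08 times that of WT. Intervals here come from the limma model and are not adjusted for the number of genes.

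Stat6 (chromosome 10, 127642986 to 127660957, plus strand) measured 244.8, 240.4 and 239.1 CPM in KO, against 232.4, 235.4 and 237.5 CPM in WT. Every KO sample lay above every WT sample, with a gap smaller than the range within either group. Groups that do not overlap were found for 3 of the 8 genes (Stat6, Klf4 and Arg1), beside 17.7% of all tested genes. Stat6 and Klf4 were higher in KO without overlap, beside 8.55% of all tested genes, and Arg1 was lower, beside 9.1%. The difference of Stat6 was small, 0.04 on the log2 scale (SE 0.0298, interval -0.03 to 0.11, limma, BH-adjusted p = 0.662). With columns rescaled to equal sums the difference was 0.06 for both Il4ra (adjusted p = 0.556) and Stat6 (adjusted p = 0.418), and without KO replicate 1 or WT replicate 2 that of Il4ra was 0.02. An exact two-sided permutation test of Stat6 gave p = 0.1, and groups of 3 cannot give a smaller one.

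Klf4, a zinc finger transcription factor that works with STAT6, had the smallest p of the 8 genes and was higher in all KO samples. On chromosome 4 (55527143 to 55532466, minus strand), it measured 29.7, 29.2 and 28.5 CPM in KO, against 25.5, 26.6 and 23.6 CPM in WT. The groups did not overlap. The mean was 29.1 ± 0.604 CPM in KO and 25.3 ± 1.53 CPM in WT, a log2 difference of 0.20 (SE 0.0567, interval 0.07 to 0.33). It missed the threshold (limma, BH-adjusted p = 0.198, unadjusted p = 0.00746), with an adjusted p from 0.171 to 0.483 over the alternatives tried, and 3.73% of tested genes had a smaller p. The exact two-sided permutation test gave p = 0.1. Klf2, a related factor with roles in quiescent myeloid cells, stood at 16.1 ± 0.864 CPM in KO and 12.9 ± 0.838 CPM in WT and did not pass the test either (log2 difference 0.30, SE 0.0705, limma, BH-adjusted p = 0.115).

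Pparg, the nuclear receptor that governs lipid genes in alternatively activated macrophages and the member with the seed match printed above, did not differ beyond the spread between samples. It measured 60.4, 63.5 and 61.9 CPM in KO, against 59.1, 55.6 and 61.1 CPM in WT. The highest WT sample lay above the lowest KO sample. The mean was 61.9 ± 1.52 CPM in KO and 58.6 ± 2.77 CPM in WT, a log2 difference of 0.08 (SE 0.0462, interval -0.03 to 0.19, limma, BH-adjusted p = 0.529). Without WT replicate 2, the lowest sample, the difference was 0.04 (adjusted p = 0.853). The interval with all samples spans KO levels from 0.982 to 1.14 times that of WT. The exact two-sided permutation test gave p = 0.2.

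Egr2, a zinc finger factor induced by interleukin-4 that helps to keep the late gene programme on, was split among the WT samples. On chromosome 10 (67535475 to 67542188, plus strand), it measured 82.7, 81.2 and 88.5 CPM in KO, against 77.9, 98.5 and 98.7 CPM in WT. WT replicate 1 was the lowest of all 6 samples and the other WT samples were the highest. With all samples the log2 difference was -0.12 (SE 0.0871, interval -0.31 to 0.08, limma, BH-adjusted p = 0.645), without WT replicate 1 it was -0.23 (SE 0.0474, adjusted p = 0.0653), and without WT replicate 2 or 3 it was -0.06 (adjusted p = 0.898 and 0.90). Its relatives Egr1 (35.7 ± 3.19 CPM in KO and 31.9 ± 3.20 CPM in WT) and Egr3 (7.84 ± 2.02 and 7.06 ± 1.28 CPM) were not called (limma, BH-adjusted p = 0.502 and 0.826).

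**Figure D2:**
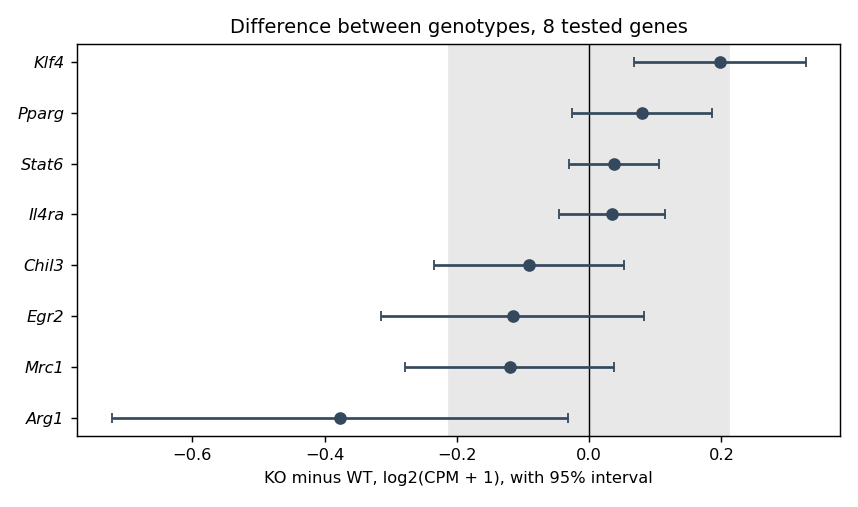
Difference KO minus WT on the log2(CPM + 1) scale (horizontal axis) for the 8 tested genes, with limma's 95% interval as bars. The grey band holds the 90% of all tested genes with the smallest absolute difference, up to 0.21, and Arg1 (-0.38) is the only one of the 8 genes whose point lies outside it.

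Among the effector genes, Mrc1 was abundant, Chil3 moderate and Arg1 close to the filter on low values, and none passed the test. Mrc1 encodes the mannose receptor, an endocytic lectin, and lies on chromosome 2 (14229392 to 14332057, plus strand). It measured 832, 709 and 864 CPM in KO, against 833, 893 and 879 CPM in WT. KO replicate 2 was the lowest sample. KO replicate 1 lay just under the lowest WT sample, and KO replicate 3 lay within the WT range. The mean was 802 ± 82.0 CPM in KO and 868 ± 31.0 CPM in WT (log2 difference -0.12, SE 0.0694, interval -0.28 to 0.04, limma, BH-adjusted p = 0.527). The exact two-sided permutation tests gave p = 0.2 for Mrc1, 0.3 for Chil3 and Il4ra, 0.4 for Egr2 and 0.1 for Arg1. Without KO replicate 2 the difference of Mrc1 was -0.03 (SE 0.0433, adjusted p = 0.834). KO replicate 2 was also the sample with the lowest summed stromal markers (5.89 CPM). WT replicate 1, the lowest WT sample for Mrc1, had the highest sum (63.8 CPM). The part of stromal cells in the level of Mrc1 was not tested. Mrc2, the related receptor that stromal cells use to take up collagen, was under the filter, with 0.408, 0.215 and 0.647 CPM in KO, against 1.39, 1.33 and 0.988 CPM in WT.

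Arg1, the arginase that turns arginine into ornithine and urea, was low in every sample and had the largest difference of the 8 tested genes. On chromosome 10 (24915221 to 24927484, minus strand), it measured 1.22, 0.906 and 1.31 CPM in KO, against 1.32, 2.19 and 1.89 CPM in WT. The groups did not overlap, but WT replicate 1 lay next to KO replicate 3. The mean was 1.15 ± 0.212 CPM in KO and 1.80 ± 0.444 CPM in WT. The log2 difference was -0.38 (SE 0.151, interval -0.72 to -0.03), a scale that understates the change of a gene this low (-0.60 on log2(CPM + 0.1) and -0.14 on log2(CPM + 5)), and it missed the threshold (limma, BH-adjusted p = 0.353, unadjusted p = 0.0357). Without WT replicate 1 it was -0.51 (SE 0.143, adjusted p = 0.153), and without WT replicate 2 it was -0.28 (SE 0.165, adjusted p = 0.682). KO replicate 2, with the lowest summed stromal markers (5.89 CPM), was the lowest sample for Arg1 too. WT replicate 1, with the highest sum (63.8 CPM), was the lowest WT sample for Arg1. The part of stromal cells in the level of Arg1 was not tested.

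Chil3 encodes a secreted chitinase-like protein and lies on chromosome 3 (106147554 to 106167564, minus strand). It measured 41.1, 37.9 and 39.1 CPM in KO, against 44.6, 43.2 and 38.4 CPM in WT. The groups overlapped through WT replicate 3 (log2 difference -0.09, SE 0.063, interval -0.24 to 0.05, limma, BH-adjusted p = 0.607). Without WT replicate 3 the difference was -0.15 (adjusted p = 0.458), and without WT replicate 1 it was -0.05 (adjusted p = 0.803). Chil4 is a near-identical copy that was not analysed here, and how reads shared by both were counted is unknown. Retnla encodes a secreted resistin-like protein. Its relative Retnlg stood at 0.971 ± 0.196 CPM in KO and 1.31 ± 0.281 CPM in WT and was not called (limma, BH-adjusted p = 0.556).

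Cish, the cytokine-inducible feedback inhibitor, was under the filter in both groups. On chromosome 9 (107296026 to 107302784, plus strand), it measured 0.693, 0.784 and 0.696 CPM in KO, against 0.738, 0.610 and 0.993 CPM in WT. The groups overlapped, and in a fit without the filter the log2 difference was -0.04 (SE 0.11, limma, BH-adjusted p = 0.923).

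Sequences that STAT proteins bind as dimers, TTC and GAA spaced by 3 or 4 bases, were looked for near the start sites of the 10 genes, because STAT6 and STAT5 act on several of them through such sites. RefSeq windows from 250 bases before to 50 after the start (GRCm38.p6) were matched for 9 of the 10 genes, all but Arg1. The motif TTCNNNNGAA, which reads the same on both strands and cannot begin at the same base as the shorter motif, was found in the window of Retnla alone, and in 6.95% of all 32851 windows. The motif TTCNNNGAA was found in the windows of Chil3 and Cish and in 8.30% of all windows. The matches are printed with 5 bases on each side on the gene's strand, motifs in capitals, for Retnla (chr16:48842459-48842478), Chil3 (chr3:106167723-106167741, minus strand) and Cish (chr9:107296654-107296683).
Retnla: cataaTTCACAAGAAattgc
Chil3: cccacTTCTTAGAAacata
Cish: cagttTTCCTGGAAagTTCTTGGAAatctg
The match of Retnla begins 145 bases before the start and that of Chil3 begins 172 bases before it. Cish holds 2 matches, at bases 1 to 9 and 12 to 20, counted with the start as base 1. This RefSeq start of Cish lies inside the gene span given above and not at its first base. Binding was not measured, and a window without a match says only that these letters are not in it.

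Set per kilobase of the longest annotated transcript, the levels of the 9 genes spanned a wide range. Mrc1 was highest, with a median of 158 CPM per kb over the 6 samples (132 to 166), followed by Stat6 with 63.1 CPM per kb (61.6 to 64.8). Egr2 (median 28.9, 26.3 to 33.3), Pparg (28.6, 26.2 to 29.9) and Chil3 (26.1, 24.6 to 29.0 CPM per kb) overlapped, so their order is not distinguished by these samples. Il4ra followed with 16.0 CPM per kb (15.6 to 16.6) and Klf4 with 9.10 (7.80 to 9.79). Arg1 (0.889, 0.613 to 1.48 CPM per kb) and Cish (0.153, 0.130 to 0.211 CPM per kb) were lowest. Neighbours outside that group of 3 did not overlap. The order depends on the transcript length chosen for each gene.

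Arg1 had the widest range of the 9 genes over the 6 samples, 0.74 on the log2(CPM + 1) scale. Of 9530 other tested genes with a mean of at least 5 CPM, those nearest to its sample-by-sample profile were Pitpnc1, a phosphatidylinositol transfer protein gene, Rgs16, a regulator of G protein signalling, and the chemokine gene Ccl2. Their mean absolute difference from the profile of Arg1, each centred on its own mean over the 6 samples, was 0.03, 0.05 and 0.05 on the log2 scale. Pitpnc1 measured 108.0, 91.3 and 109.6 CPM in KO, against 110.1, 142.3 and 136.5 CPM in WT. As with Arg1, KO replicate 2 was lowest and WT replicate 1 lay near the other KO samples. With all samples none of the 3 was called (limma, BH-adjusted p = 0.236 for Pitpnc1, 0.314 for Rgs16 and 0.273 for Ccl2), and without WT replicate 1 Pitpnc1 (log2 difference -0.44, adjusted p = 0.0415) and Ccl2 (-0.50, adjusted p = 0.0188) were. The genes were chosen for their likeness to Arg1 over the same samples, so the likeness is a description. Their wider differences without WT replicate 1 follow from that choice too. In that setting 2.1% of all tested genes were called.

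**Figure D3:**
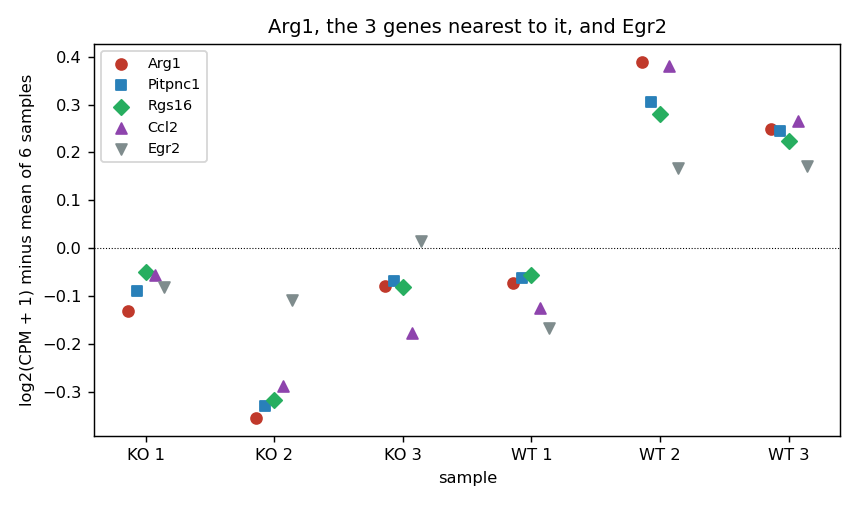
Level of Arg1, of the 3 genes nearest to it and of Egr2 in each sample, as log2(CPM + 1) minus the gene's mean over the 6 samples (vertical axis), with a symbol for each gene. In WT replicate 1 all 5 genes lie below their mean, and in WT replicates 2 and 3 above it. The likeness of the 3 genes to Arg1 follows from how they were chosen, and Egr2 was placed beside them outside that rule.

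Other genes of the interleukin-4 receptor and its signal did not pass the test. Of 17 such genes, 14 were tested and 0 passed (limma, BH-adjusted p from 0.236 to 0.963; 3 had an unadjusted p under 0.05, beside 12.5% of all tested genes), with a median log2 difference of -0.02 (-0.030 to -0.0092 when 1 sample was left out). Of the 3, 1 was higher in KO and 2 were lower. Groups did not overlap for 4 of the 14 genes, beside 17.7% of all tested genes. The kinase gene Jak1, which serves the receptor, stood at 368 ± 8.52 CPM in KO and 371 ± 6.37 CPM in WT, and the adaptor gene Grb2 at 356 ± 3.46 and 373 ± 12.7 CPM. Among 15 genes of the SOCS family and of STAT5 signalling, 12 were tested and 0 passed (1 had an unadjusted p under 0.05), with a median of -0.05 (-0.054 to -0.027 when 1 sample was left out). Of the 12 log2 differences 10 were below 0, beside 50.1% of all tested genes. With columns rescaled to equal sums 7 were below 0, beside 40.2%. Groups did not overlap for 3 of the 12, beside 17.7%. The most abundant of the 12 were the receptor genes Csf2rb (272 ± 6.69 CPM in KO, 275 ± 24.4 CPM in WT) and Csf2rb2 (343 ± 10 and 355 ± 9.17 CPM), near-identical neighbours whose reads may be split. Socs2, the closest relative of Cish reported here, was under the filter with 0.496, 0.494 and 0.341 CPM in KO, against 0.668, 1.03 and 1.08 CPM in WT, so that its groups did not overlap.

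Of other markers used for alternative activation, 1 passed the test as lower in KO, beside 0.787% of all tested genes. None passed as higher, beside 0.485%. Of 27 such genes 18 were listed and 16 tested. An unadjusted p under 0.05 by limma was found for 7 of the 16, 1 higher and 6 lower, beside 12.5% of all tested genes. Of the 16 log2 differences 4 were above 0 and 12 below, beside 50.1% of all tested genes below 0, with a median of -0.08. With columns rescaled to equal sums 6 were above 0 and 10 below, beside 40.2% of all tested genes below. The median was -0.17 without KO replicate 1 and -0.14 without WT replicate 1, and from -0.08 to -0.06 without any other sample. The gene that fell was Il1rn, which encodes the interleukin-1 receptor antagonist. It measured 90.7, 92.7 and 89.3 CPM in KO, against 117.7, 151.4 and 154.0 CPM in WT. Every KO sample lay below every WT sample, and WT replicate 1 was again the lowest WT sample. The log2 difference was -0.62 (SE 0.0914, limma, BH-adjusted p = 0.0173), and the call was lost without KO replicate 1 (adjusted p = 0.0879), KO replicate 3 (0.0613), WT replicate 2 (0.0865) and WT replicate 3 (0.0755). Stab1, a scavenger receptor gene of the same list, measured 990, 820 and 1091 CPM in KO, against 1055, 1141 and 1143 CPM in WT and did not pass (log2 difference -0.21, limma, BH-adjusted p = 0.387). KO replicate 2 was its lowest sample too, and without it the difference was -0.10 (adjusted p = 0.561). Ccl17, Ccl24, Pdcd1lg2 and other markers of the list were not analysed here.

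All 24 transcriptional regulators of macrophage activation were tested: 2 fell in KO, 0 rose and 22 did not pass. Over all tested genes 0.787% fell and 0.485% rose. The median log2 difference of the 24 was -0.02 (-0.033 to -0.014 when 1 sample was left out). Bhlhe41, one of the 2, a basic helix-loop-helix repressor, measured 52.3, 60.6 and 57.8 CPM in KO, against 72.5, 74.0 and 75.2 CPM in WT, without overlap (log2 difference -0.37, SE 0.0552, limma, BH-adjusted p = 0.0173). The call of Bhlhe41 was lost without WT replicate 2 (limma, BH-adjusted p = 0.0879) and without WT replicate 3 (0.0904). Before adjustment, 9 of the 24 regulators lay below 0.05 in limma, 3 higher in KO and 6 lower. Over all tested genes that share was 12.5%. KO and WT samples were fully separated for 9 of the 24, against 17.7% over all tested genes.

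Around Arg1, 1 of 12 tested genes of arginine and polyamine metabolism fell, beside 0.787% of all tested genes, and 0 rose, beside 0.485%. The median log2 difference was -0.003 (-0.030 to 0.0048 when 1 sample was left out). An unadjusted p under 0.05 by limma was found for 2 of the 12, all lower, beside 12.5% of all tested genes. Groups did not overlap for 3 of the 12, beside 17.7%. The gene that fell, Azin1, encodes an inhibitor of antizyme and thereby keeps ornithine decarboxylase from being degraded. It measured 234.7, 244.7 and 219.9 CPM in KO, against 276.7, 312.2 and 309.7 CPM in WT, without overlap. The log2 difference was -0.36 (SE 0.0566, limma, BH-adjusted p = 0.0226), and the call was lost without KO replicate 1 (adjusted p = 0.103), KO replicate 3 (0.0623), WT replicate 2 (0.107) and WT replicate 3 (0.114). Oaz1, which encodes antizyme itself, stood at 291 ± 14.6 CPM in KO and 290 ± 3.14 CPM in WT (adjusted p = 0.976).

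Genes that PPARG controls lay mostly lower in KO, while none passed the test with all samples. Of 11 tested, 10 log2 differences were below 0 and the median was -0.11 (4 had an unadjusted p under 0.05, all lower, by limma, beside 12.5% of all tested genes with such a p in either direction), and 50.1% of all tested genes were below 0. The median ran from -0.16 (without KO replicate 3) to -0.067 (without KO replicate 2) when 1 sample was left out. With columns rescaled to equal sums 9 of the 11 were below 0, beside 40.2% of all tested genes. The lipoprotein lipase gene Lpl stood at 10750 ± 15.7 CPM in KO and 10779 ± 231 CPM in WT, and the fatty acid translocase gene Cd36 at 3240, 2851 and 3245 CPM in KO, against 2899, 3634 and 3718 CPM in WT. WT replicate 1 of Cd36 lay within the KO range. Without WT replicate 1, where calls rose over the whole table to 2.1% of tested genes (1.41% lower), 3 of the 11 fell: Hilpda (log2 difference -0.67, limma, BH-adjusted p = 0.0146), Fabp4 (-0.50, adjusted p = 0.0133) and Fabp5 (-0.38, adjusted p = 0.0246), named after their values were seen.

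Markers of classical activation did not pass the test either: of 21 genes 15 were listed, 11 tested and 0 passed (3 had an unadjusted p under 0.05 by limma, beside 12.5% of all tested genes), with a median log2 difference of 0.01. That median was 0.12 without WT replicate 1, with 8 of the 11 above 0, and ran from -0.01 to 0.06 without any other sample. Irf5, a factor of that state, stood at 200 ± 3.59 CPM in KO and 198 ± 2.20 CPM in WT. Nos2, Il6 and Il12b were not analysed here.

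**Figure D4:**
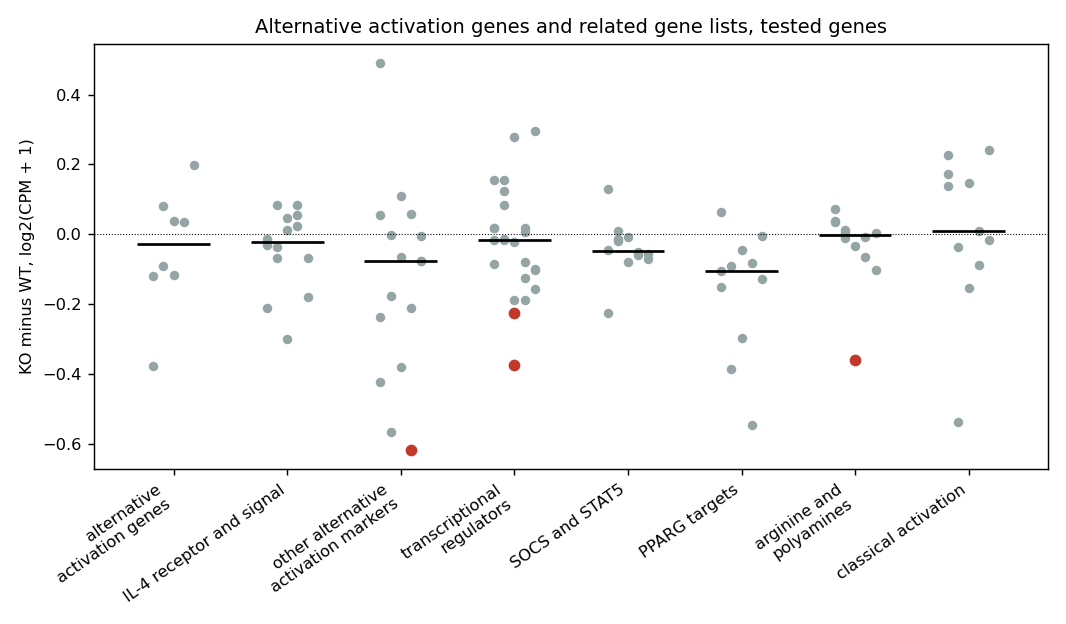
Difference KO minus WT on the log2(CPM + 1) scale (vertical axis) of the 8 tested alternative activation genes and of the tested genes of 7 related lists, as points, with a line at each median. Red points passed the test (limma, BH-adjusted p under 0.05), and all of them, Il1rn, Bhlhe41 and Azin1 included, lie below 0.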

How the data were processed

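RNA sequencing (paired-end, total RNA, per the labels' protocols) was deposited as one table of CPM for 6 samples. Column sums of the deposited CPM ran from 989223 to 1018258, so library size was not the only scaling applied; the method, aligner, counter, annotation and strand setting were not given in these sources. The submitters' processing notes name GRCm39. An unlabelled p-value in the deposited table (beside Cd5l) was not used. Low values formed no single step per sample, so reads were not recovered. Columns of other samples numbered 0.

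The 11556 genes that reached 1 CPM in 3 or more samples were compared as log2(CPM + 1) by limma 3.58.1 in R 4.3.3 with a mean-variance trend, two-sided, BH-adjusted over all of them at 0.05. Single genes were also tested by exact permutation over 20 labelings (scipy 1.17.1, Python 3.11.15). On simulated data for these 11556 genes limma found 72.5% of changes of 0.5 (log2), 94.3% of 1 and 99.3% of 2, with 4.11% false calls. The simulated noise was normal, independent between genes, and set to each gene's spread within groups. It held no deviation shared by the genes of a sample, so these shares may not hold for the real samples. Samples were grouped by title. The genes and lists were chosen with earlier results of these data known. Text names the 10 genes, list genes past the test (up to 4), otherwise the 2 most abundant, close relatives, and the 3 profiles nearest to the most variable gene; some genes that this rule names are not reported here. Same-numbered samples' deviations correlated at 0.00015 to 0.0834, so numbers were not taken as pairs. Alternatives were other pseudocounts (0.1, 5), filters, scalings, moderation, a replicate block and leaving out each sample.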

Additional observations from a re-analysis of the deposited data

How the results depend on the processing

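All 119 values of the 8 tested alternative activation genes under 15 alternatives kept their direction, and 0 passed the test. Arg1 had no value under a mean of at least 5 CPM. The count of all genes past the test was 147, 74 without the mean-variance trend and 55 to 243 when 1 sample was left out. With a replicate block it was 142, and 4 of 6 samples correlated best with their own number. The block added Ptpn1 (interleukin-4 receptor list, 1 call) and Folr2 (other markers, 2 calls), genes named after their values were seen. Without the trend 0 genes of the other markers, 0 regulators and 0 arginine genes passed. Leaving out 1 sample gave 0 to 2 calls for the other markers (Msr1 added without WT replicate 1), 0 to 2 for regulators, 0 to 1 for SOCS and STAT5 (Pim1, without KO replicate 2), 0 to 3 for PPARG targets and 0 to 1 for arginine genes; the cause was not tested. Differences near 0 changed sign: with columns rescaled to equal sums Jak1 was 0.0099, Csf2rb 0.015 and Lpl 0.0196, and over the samples left out Jak1 ran from -0.027 to 0.0056, Csf2rb from -0.064 to 0.061, Lpl from -0.021 to 0.0082, Oaz1 from -0.034 to 0.037 and Irf5 from -0.0040 to 0.022. That rescaling also moved list medians near 0 above it, for the interleukin-4 receptor list to 0.0017, for regulators to 0.0069 and for arginine genes to 0.017, beside 0.022 for all genes. Depth in reads is unknown, so for Arg1 and Cish no counting error can be given.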
